A study of Mus musculus with 6 samples.

Results

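The expression of 9 genes of the YAP and TAZ pathway was examined in C3H10T1/2 cells, a mouse mesenchymal line that can be driven in culture towards bone, fat or muscle. The 9 genes were chosen by their role and matched by symbol to the Ensembl genes of the count table, which holds 55401 genes. They are the coactivators Yap1 and Wwtr1 (the gene of TAZ), their DNA-binding partner Tead1, the kinase gene Lats2, the scaffold genes Amotl2 and Ajuba, and the target genes Ccn1 (older name Cyr61), Ccn2 (older name Ctgf) and Ankrd1. All 9 passed the filter on low counts, which left 16742 genes for testing.

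The study asked what the transcription factor NFIB and the histone methyltransferase MLL1 do during bone differentiation. RNA was sequenced from 3 derived lines, in which a short hairpin RNA was directed against Nfib (shNFIB), against Kmt2a, which encodes MLL1 (shMLL1), or was a control (shControl). Each line was sampled when untreated (day 0) and at day 7 of an osteogenic medium with 0.1 µM dexamethasone, 100 µg/mL ascorbic acid 2-phosphate and 20 mM β-glycerophosphate. All 6 conditions share the C3H10T1/2 background and carry a hairpin, both knockdown lines are compared with the same shControl cells, and the sources used here do not say whether a line is a clone.

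YAP and TAZ carry signals from cell contact, cell shape and the stiffness of the surroundings into the nucleus. The kinases MST1 and MST2 activate LATS1 and LATS2, which phosphorylate YAP and TAZ and so hold them in the cytoplasm. Unphosphorylated YAP and TAZ enter the nucleus, bind TEAD factors and switch on genes such as Ccn1, Ccn2 and Ankrd1. In mesenchymal cells TAZ is known for binding the bone regulator RUNX2 and the fat regulator PPARγ. Transcript levels of Yap1 and Wwtr1 do not report this control, since it acts on the proteins.

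There was 1 library per condition, with total counts between 21608680 and 34774066. Levels are CPM, counts scaled by library size, after TMM scaling, a correction for differences in composition between libraries. The hairpin targets went with the labels. Nfib was at 35.3 CPM at day 0 and 8.15 CPM at day 7 in shNFIB against 116 and 83.5 CPM in shControl. Kmt2a was at 30.9 and 34.8 CPM in shMLL1 against 74.7 and 66.3 CPM in shControl. Nfib was also below shControl in shMLL1, at 65.5 CPM at day 0 and 72.7 CPM at day 7. All 7 mesenchymal markers checked (Vim, Thy1, Eng, Cd44, Prrx1, Pdgfrb, Ly6a) were above 3 counts in every library, while Adipoq, Myod1, Myog and Myf5 stayed at 2 counts or fewer. Other adipocyte and muscle markers were detected, with Fabp4 at 108 to 148 counts, Des at up to 84 and Acta1 at up to 67. Of the endothelial markers, Tek reached 795 counts in shNFIB at day 0, and Pecam1, Cdh5 and Kdr had 19 or fewer. Of the macrophage markers, Cd68 reached 217 counts in shControl at day 7 and Csf1r 26, and Ptprc and Adgre1 had 3 or fewer. The sum of the 6 adipocyte markers was 81.8 CPM in shControl at day 7 and at most 6.84 CPM in the other libraries, and the part of fat-forming cells in that library's values was not tested. By the number of genes more than 4-fold above all other libraries, among 13895 genes reaching 50 counts, shMLL1 at day 0 stood furthest apart, with 61 such genes against 12 to 49 in the others.

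TEAD factors recognise the letters GGAATG, so the promoters of the 9 genes were searched for them on both strands, where CATTCC is the reverse complement. The windows are those of RefSeq on GRCm38.p6 and run from 250 bases before to 50 bases after a gene's start in RefSeq. The gene positions given further on come from another annotation, GENCODE M21. By those positions the stretches printed for Ankrd1, Amotl2 and Lats2 lie inside the gene. Windows were found for 7 genes, and those of Tead1 and Ccn2 had no entry. Each of the 7 genes held at least 1 match in a window, as did 16.6% of the 27025 genes of the RefSeq table and 14.7% of its 32851 windows. Among related genes with a window, in lists described further on, 8 of 25 pathway genes and 3 of 11 YAP target signature genes held a match. The difference between these sets was not tested. A match describes letters and is not a measured binding site. The stretches around the matches are shown to let the positions be compared, 5′ to 3′ on the strand of the gene, with the match in capitals.
Yap1, chr9:8004720-8004749, minus strand, match beginning 141 bases before the start: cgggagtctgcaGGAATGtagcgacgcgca
Wwtr1, chr3:57576029-57576058, minus strand, 136 bases before the start: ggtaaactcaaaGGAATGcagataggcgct
Lats2, chr14:57746102-57746131, minus strand, at base 5 of the transcript: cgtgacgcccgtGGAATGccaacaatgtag
Ccn1, chr3:145650071-145650100, minus strand, 103 bases before the start: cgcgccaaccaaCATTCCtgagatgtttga
Amotl2, chr9:102717727-102717756, plus strand, 65 bases before the start: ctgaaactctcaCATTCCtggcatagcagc
Ajuba, chr14:54577830-54577859, minus strand, 186 bases before the start: cgttgatggataCATTCCacagtgcccctc
Ajuba, chr14:54577808-54577837, minus strand, 164 bases before the start: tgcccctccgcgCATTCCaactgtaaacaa

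Ankrd1 had 2 matches, and the 250 bases before its RefSeq start are given whole because its level differed most between libraries (chr19:36119845-36120094, minus strand).
Ankrd1: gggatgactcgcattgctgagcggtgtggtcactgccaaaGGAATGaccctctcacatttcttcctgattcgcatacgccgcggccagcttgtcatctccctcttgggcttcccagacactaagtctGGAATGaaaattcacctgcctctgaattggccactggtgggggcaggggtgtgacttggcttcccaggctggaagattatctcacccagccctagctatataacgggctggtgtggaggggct
The same windows held no AP-1 motif (TGANTCA, found in 7.81% of all RefSeq windows) and no CArG box (in 1.63%), on either strand. Lats2 has a second window, and Wwtr1 a second that overlaps the first and holds the same match. The second Lats2 window held none of the 3 motifs.

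Between day 0 and day 7, the transcripts of Ajuba and Ccn2 fell in the 3 lines, and no other gene of the 9 passed the test. The test was edgeR's quasi-likelihood test with line and day as terms, in which the 3 lines serve as the replicates of the day difference, with Benjamini-Hochberg adjustment over all 16742 genes and a threshold of 0.05. The 2 genes called lower, of 9, stand beside 16.5% of all tested genes called lower and 16.8% called higher, 33.3% in all. The median log2 fold change was -0.49 over the 9 genes and 0.01 over all tested genes. At an unadjusted p under 0.05 there were 4 genes of the 9, beside 46.9% of all genes. The summed level of the 7 mesenchymal markers was likewise lower at day 7 within each line. It was at 3090 against 6733 CPM in shControl, 5236 against 9708 CPM in shNFIB and 2582 against 4466 CPM in shMLL1. Vim was the largest part, at 1813 against 4153 CPM in shControl. Pdgfrb went the other way in shControl, shNFIB and shMLL1, at 363 against 312, 465 against 389 and 386 against 133 CPM. Ly6a was higher at day 7 in shNFIB, at 1281 against 1244 CPM. The part of these markers in the falls of Ajuba and Ccn2 was not tested. In these bulk libraries fewer cells expressing a gene and less RNA per cell cannot be told apart.

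**Figure D1:**
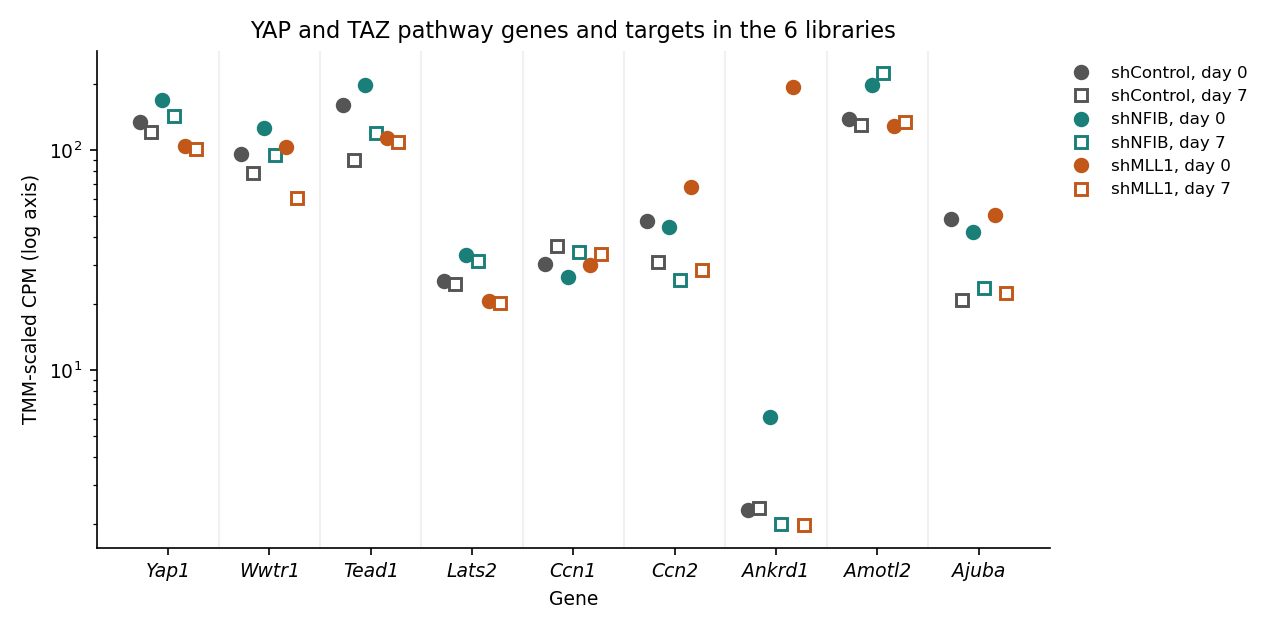
TMM-scaled CPM (log axis) of the 9 genes in each of the 6 libraries; filled circles are day 0 and open squares day 7, and the colour gives the line. Each point is 1 library. Ajuba and Ccn2 were lower in every day 7 library than in every day 0 library, and Ankrd1 stood at 192 CPM in shMLL1 at day 0 and at 6.08 CPM or less elsewhere.

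Yap1 (ENSMUSG00000053110, chromosome 9 from 7931999 to 8004596, GRCm38, as for all gene positions here) encodes the coactivator YAP. It was at 134 CPM at day 0 and 120 CPM at day 7 in shControl, 168 and 142 CPM in shNFIB, and 104 and 101 CPM in shMLL1. The libraries were ordered by line rather than by day: both shNFIB libraries were the highest and both shMLL1 libraries the lowest. The day difference was -0.15 on the log2 scale (SE 0.18, adjusted p = 0.558). Gm20416 overlaps an exon on the other strand, and the strand setting of the counting is not given in the sources used here.

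Wwtr1 (ENSMUSG00000027803, chromosome 3 from 57455649 to 57575910), the gene of TAZ, was at 95.6 CPM at day 0 and 78.5 CPM at day 7 in shControl. In shNFIB the 2 levels were 126 and 94.3 CPM, and in shMLL1 103 and 60.1 CPM. Every day 7 library was below every day 0 library, yet the log2 fold change of -0.49 did not pass the test (SE 0.19, adjusted p = 0.0848). The day ratio of shMLL1 was -0.77 against -0.28 in shControl, a difference of -0.49 with a 95% interval of -0.61 to -0.37 that covers counting error only. With 1 library per condition this difference between lines has no replicate check.

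Per kilobase of exon, a scale on which genes can be compared, Yap1 was at 0.72 times the level of Wwtr1 in shControl at day 0 and at 0.79 times at day 7. In shNFIB the ratio was 0.69 and then 0.78. In shMLL1 it was 0.52 and then 0.87. The ratio was thus higher at day 7 than at day 0 in each line, and both the lowest and the highest value came from shMLL1. Exon lengths here are the union of all annotated exons, so the ratio depends on the annotation as well as on the counts.

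Tead1 (ENSMUSG00000055320, chromosome 7 from 112679318 to 112906807) encodes a TEAD factor, through which YAP and TAZ reach DNA. It was at 159 CPM at day 0 and 89.4 CPM at day 7 in shControl, and at 197 and 119 CPM in shNFIB. In shMLL1 it was at 113 and 109 CPM, so the day 0 level of this line was already below the day 7 level of shNFIB. Over the 3 lines the log2 fold change of -0.54 did not pass the test (SE 0.22, adjusted p = 0.0998). Without the shMLL1 line it was -0.78 and passed (adjusted p = 0.0172). The day ratio of shMLL1 was -0.06 against -0.83 in shControl, a difference of 0.78 (95% interval of counting error 0.68 to 0.88).

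Of the other TEAD genes, which belong to the pathway list described further on, Tead4 and Tead3 rose. Tead4 rose by a log2 fold change of 1.59 (SE 0.20, adjusted p = 0.00242), from 16.5, 17.2 and 16.5 CPM at day 0 in shControl, shNFIB and shMLL1 to 41.3, 64.9 and 47.9 CPM at day 7. Tead3 rose by 1.42 (SE 0.28, adjusted p = 0.0109), from 9.31 to 22.2 CPM at day 0 to 36.1 to 48.6 CPM at day 7. Tead2 had a log2 fold change of 0.40 and no call (adjusted p = 0.123). Of the summed TEAD level per kilobase of exon, Tead1 made up 42.1%, 45.7% and 33.9% at day 0 in shControl, shNFIB and shMLL1 and 18.9%, 19.4% and 18.7% at day 7. Tead4 made up 16.4%, 15.1% and 18.7% at day 0 and 32.9%, 39.9% and 31.1% at day 7. Per kilobase, Tead4 was below Tead1 and Tead2 at day 0 in each line, and above Tead1 at day 7 in each line. In CPM, Tead1 was still above Tead4 at day 7, at 89.4, 119 and 109 against 41.3, 64.9 and 47.9 in shControl, shNFIB and shMLL1. The day 7 order of this pair thus depends on the exon lengths used. The shares were not tested.

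**Figure D2:**
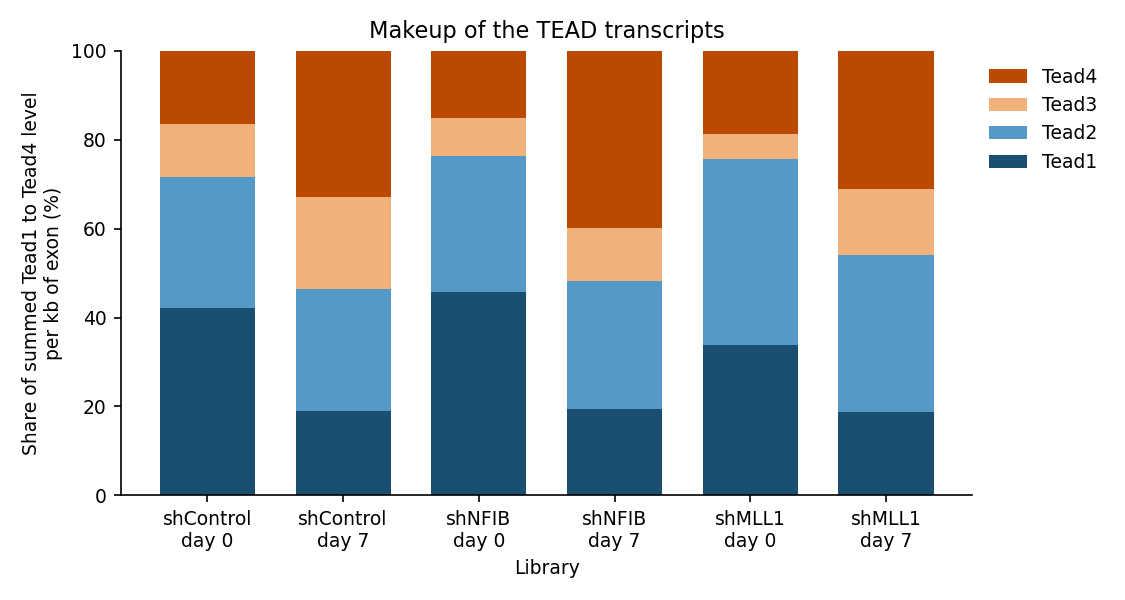
Share of the summed level per kilobase of exon (vertical axis, %) taken by Tead1, Tead2, Tead3 and Tead4 in each of the 6 libraries (horizontal axis). Each bar is 1 library, with no error bar. The Tead1 share was 33.9% to 45.7% at day 0 and 18.7% to 19.4% at day 7, while the Tead4 share was 15.1% to 18.7% and then 31.1% to 39.9%.

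Lats2 (ENSMUSG00000021959, chromosome 14 from 57689662 to 57758388), the kinase gene that is both a brake on YAP and a known target of it, was at 25.5 CPM at day 0 and 24.7 CPM at day 7 in shControl. In shNFIB the levels were 33.2 and 31.3 CPM, and in shMLL1 20.5 and 20.0 CPM. The order of the lines was that of Yap1, with shNFIB highest and shMLL1 lowest on both days, and across the 6 libraries Pearson's r of log2 CPM between Lats2 and Yap1 was 0.97. An r over 0.9 with Yap1 was also common elsewhere, at 471 of the 13339 genes compared. The day difference of Lats2 was -0.06 (SE 0.18, adjusted p = 0.833). Lats2 shares exonic sequence with Gm49361 on the same strand, so its counts are uncertain.

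Amotl2 (ENSMUSG00000032531, chromosome 9 from 102716672 to 102733418) encodes a junction protein of the angiomotin family that binds YAP and is also a known YAP target. It was at 138 and 130 CPM in shControl, 197 and 222 CPM in shNFIB, and 128 and 134 CPM in shMLL1, at day 0 and day 7. Both shNFIB libraries were above the other 4. The day difference was 0.05 (SE 0.19, adjusted p = 0.858), and the day ratios differed in sign between lines.

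Ajuba (ENSMUSG00000022178, chromosome 14 from 54567472 to 54577558) encodes a LIM protein that restrains the LATS kinases. It was at 48.5 CPM at day 0 and 20.9 CPM at day 7 in shControl, 42.4 and 23.6 CPM in shNFIB, and 50.4 and 22.3 CPM in shMLL1. The days did not overlap, and the 3 libraries of each day lay close together. It fell by 1.08 on the log2 scale (SE 0.19, adjusted p = 0.00737). Without the shControl line the log2 fold change was -1.01 and no longer passed (adjusted p = 0.0582).

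Ccn1 and Ccn2 encode secreted matricellular proteins of the same family, are widely used as readouts of YAP and TAZ activity, and differed here in their direction. Ccn2 (ENSMUSG00000019997, chromosome 10 from 24595442 to 24598683) was at 47.6 CPM at day 0 and 31.0 CPM at day 7 in shControl, 44.7 and 25.5 CPM in shNFIB, and 67.4 and 28.3 CPM in shMLL1. It fell by 0.89 on the log2 scale (SE 0.20, adjusted p = 0.0172), with no overlap of the days. The highest level was that of shMLL1 at day 0, and the day ratio of this line was -1.25 against -0.62 in shControl, a difference of -0.63 (95% interval of counting error -0.80 to -0.46). Without the shControl line the log2 fold change was -1.03 and did not pass (adjusted p = 0.0574). Gm15270 overlaps an exon of Ccn2 on the other strand.

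Ccn1 (ENSMUSG00000028195, chromosome 3 from 145646976 to 145649981) was at 30.2 CPM at day 0 and 36.5 CPM at day 7 in shControl. In shNFIB the levels were 26.3 and 34.2 CPM, and in shMLL1 29.99 and 33.6 CPM. Each day 7 library was above each day 0 library, but the log2 fold change of 0.27 did not pass the test (SE 0.18, adjusted p = 0.272). Per kilobase of exon, Ccn2 was at 1.11, 1.20 and 1.59 times the level of Ccn1 at day 0 in shControl, shNFIB and shMLL1, and at 0.60, 0.53 and 0.59 times at day 7. The order of the pair was thus reversed between days in each line. Across the 6 libraries Pearson's r between the log2 CPM of Ccn1 and Ccn2 was -0.68.

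**Figure D3:**
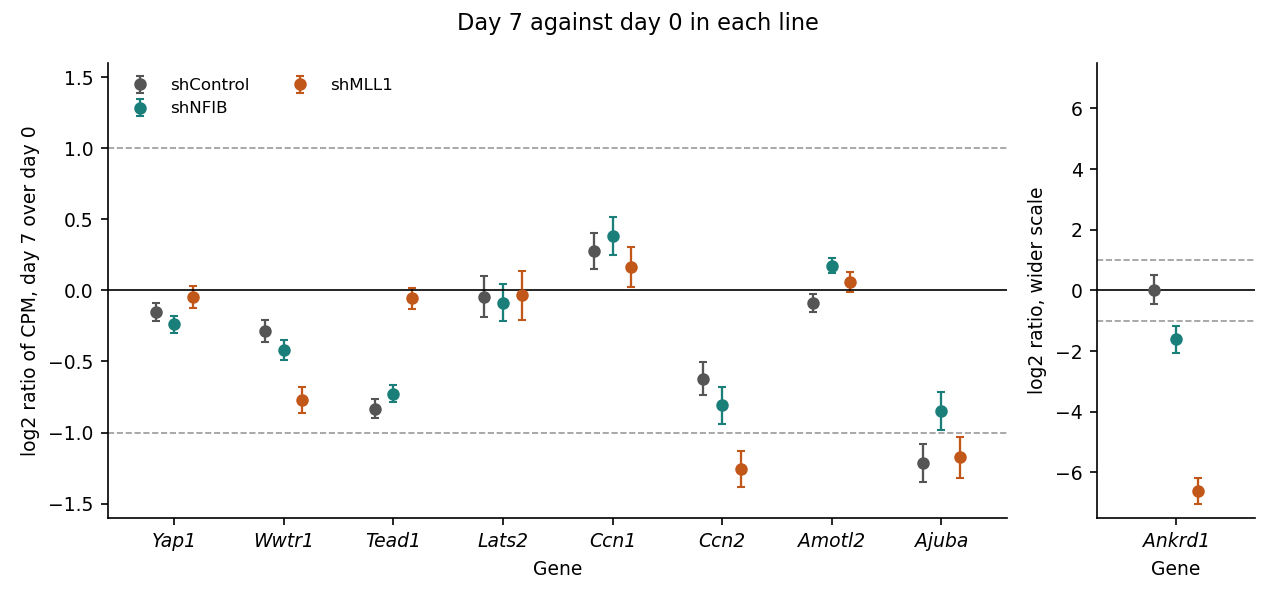
log2 ratio of CPM at day 7 over day 0 (vertical axis) for each of the 9 genes in shControl, shNFIB and shMLL1; Ankrd1 has its own, wider axis. Bars are 95% intervals of the counts (exact Clopper-Pearson, counting error only), and dashed lines mark a fold of 2. Ajuba and Ccn2 were below 0 in each line, Ccn1 was above 0 in each line, and Ankrd1 was at -6.61 in shMLL1.

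Within single lines, "over 2-fold" is used in place of a test, since each condition had 1 library. In shControl 1 of the 9 genes was over 2-fold different between days, Ajuba at 2.32-fold lower, beside 37.0% of all genes. In shNFIB it was Ankrd1 alone, at 3.05-fold lower, beside 30.7% of all genes, and Ajuba was 1.80-fold lower. In shMLL1 there were 3 genes, beside 44.0% of all genes: Ankrd1 at 97.7-fold lower, Ccn2 at 2.38-fold lower and Ajuba at 2.26-fold lower. No gene of the 9 was over 2-fold higher at day 7 in any line.

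Ankrd1 (ENSMUSG00000024803, chromosome 19 from 36111961 to 36120099) encodes an ankyrin repeat protein best known from heart and skeletal muscle and is a common YAP target gene. It had 5799 counts in shMLL1 at day 0 and 48 to 192 counts in the other 5 libraries. In CPM it was at 2.32 at day 0 and 2.36 at day 7 in shControl, at 6.08 and 2.00 in shNFIB, and at 192 and 1.97 in shMLL1. At day 0 it was 82.9-fold higher in shMLL1 than in shControl, a log2 ratio of 6.37 (95% interval of counting error 6.04 to 6.73). In shNFIB at day 0 it was 2.62-fold higher, a log2 ratio of 1.39 (1.00 to 1.80). At day 7 the 3 lines lay between 1.97 and 2.36 CPM, and the intervals of both knockdown lines against shControl included 0.

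Ankrd1 was not called between days, with a fitted log2 fold change of -2.47 (SE 1.25, adjusted p = 0.161). This value rests on 1 library: without the shMLL1 line it was -0.80 (adjusted p = 0.238), and without the shControl line, in which the days were alike, it was -4.13 and passed (adjusted p = 0.0308). It also passed without the line as a block, at -4.98 (adjusted p = 0.0467), and when all genes with a count were kept in the fit, at -2.47 (adjusted p = 0.00612). Among 13895 genes, Ankrd1 ranked 4th by the fold of shMLL1 at day 0 over the highest other library, which was 31.6. Those ahead of it were 4930461G14Rik, Trem3 and Gpr141, and the next below were Areg, Npffr1, Msln and Tnnt2. These genes were chosen after their values were seen.

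The muscle markers were examined beside Ankrd1. Tnnt2, a sarcomere gene of the heart, was at 19.5 CPM in shMLL1 at day 0 and at 1.19 CPM or less in the other libraries. The sum of the 8 muscle markers was 20.5 CPM in this library and 0.304 to 5.92 CPM in the others, and nearly all of it was Tnnt2. The other markers above 3 counts there were lower than in shControl at day 0, Des at 0.398 against 2.63 CPM and Acta1 at 0.596 against 2.10 CPM. The defining markers Myod1, Myog, Myf5 and Actc1 had 2, 1, 0 and 0 counts in it. The other 8 genes of the set did not share this peak: Ccn2 was 1.41-fold and Ajuba 1.04-fold above the highest other library in shMLL1 at day 0, and the remaining 6 were below it.

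Over both days, no gene of the 9 was called in either knockdown line by the quasi-likelihood test, beside 0.376% of all genes in shNFIB and 0.0299% in shMLL1. At an unadjusted p under 0.05, which 12.5% of all genes reached in shNFIB and 9.28% in shMLL1, there was 1 gene in each, Amotl2 in shNFIB with a log2 fold change of 0.65 (SE 0.23, adjusted p = 0.326) and Ankrd1 in shMLL1 with 3.90 (SE 1.61, adjusted p = 0.526). DESeq2's Wald test called none of the 9 in either line. When all genes with a count were kept in the fit, Ankrd1 was called in shMLL1 (adjusted p = 0.00807). The 2 comparisons use the same shControl libraries. The quasi-likelihood test did not call the hairpin targets either. Nfib in shNFIB had a log2 fold change of -2.39 (SE 0.51, adjusted p = 0.14). Kmt2a in shMLL1 had one of -1.10 (SE 0.22, adjusted p = 0.149). A missing call in a knockdown line, for the 9 genes or the lists described further on, thus does not show that a gene was unchanged.

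By the fold of 2 between single libraries, Ankrd1 was the 1 gene of 9 that differed at day 0, in shNFIB beside 15.3% of all genes and in shMLL1 beside 20.8%. At day 7 none of the 9 was past that fold, beside 20.5% of all genes in shNFIB and 14.1% in shMLL1. Smaller differences held on both days. Amotl2 in shNFIB was 1.43-fold above shControl at day 0 and 1.72-fold at day 7. Wwtr1 in shNFIB was 1.32-fold and 1.20-fold above shControl, and Tead1 1.24-fold and 1.33-fold. Lats2 was 1.30-fold and 1.27-fold above shControl in shNFIB, and 1.24-fold and 1.23-fold below it in shMLL1. Yap1 was 1.26-fold and 1.18-fold above shControl in shNFIB, and 1.28-fold and 1.19-fold below it in shMLL1. The intervals of these ratios excluded 0 on the log2 scale, but they cover counting error only, and the differences did not pass the test over both days. Tead1 in shMLL1 changed side, being 1.41-fold below shControl at day 0 and 1.22-fold above it at day 7.

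**Figure D4:**
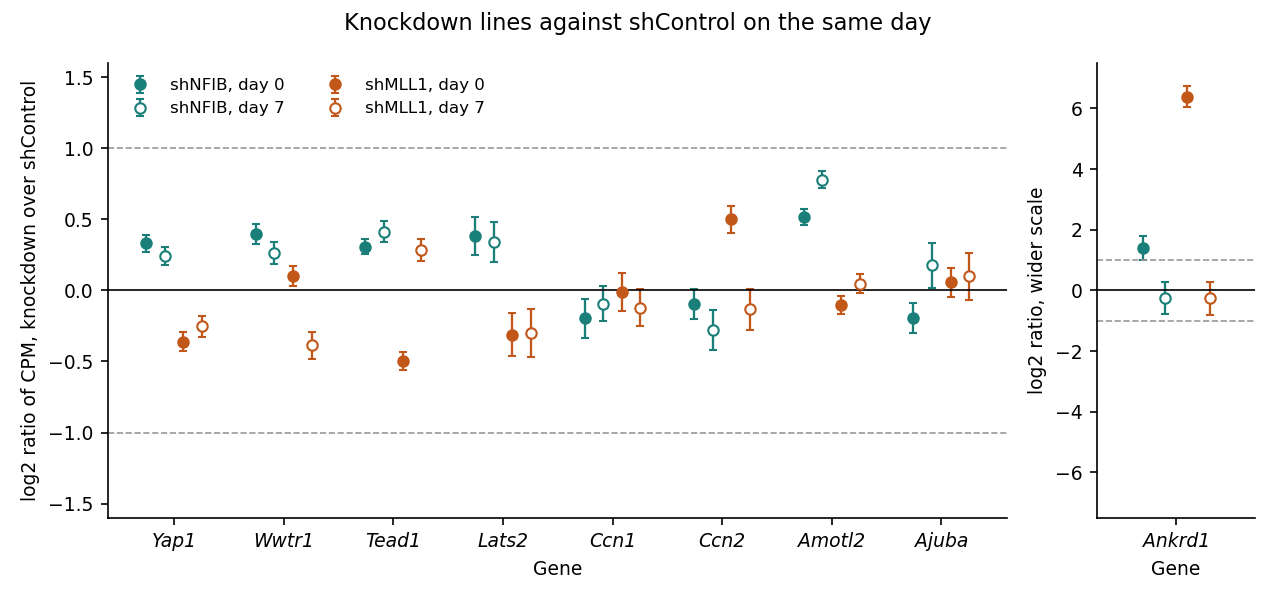
log2 ratio of CPM of each knockdown line over shControl on the same day (vertical axis) for the 9 genes; filled points are day 0 and open points day 7, and Ankrd1 has its own, wider axis. Bars are 95% intervals of the counts (exact Clopper-Pearson), and dashed lines mark a fold of 2. Apart from Ankrd1 at day 0, at 1.39 in shNFIB and 6.37 in shMLL1, each ratio lay within a fold of 2.

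The other genes of the pathway were taken from a list of 31 kinases, adaptors, junction proteins, phosphatase subunits and TEAD partners, and all 31 were tested. Between days 4 rose, 6 fell and 21 had no call, beside 16.8% of all genes called higher and 16.5% called lower. With library size alone as scaling the split was 7 higher and 5 lower. The median log2 fold change of the list was 0.09, and 0.01 over all tested genes.

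Apart from Tead4 and Tead3, the genes that rose were Map4k4 and Dchs1. Map4k4, a kinase that can act on LATS in parallel to MST1 and MST2, rose by 0.88 (SE 0.24, adjusted p = 0.0312), from 199 to 371 CPM at day 0 to 327 to 595 CPM at day 7. Dchs1, a large cadherin upstream of the kinases, rose by 1.77 (SE 0.55, adjusted p = 0.0454), but it was at 0.951 CPM or less in every library and lost its call when any 1 line was left out.

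The 6 that fell included 2 genes of the kinase core. Stk3, the gene of MST2, fell by 1.119 (SE 0.18, adjusted p = 0.00586): it was at 74.7 CPM at day 0 and 31.1 CPM at day 7 in shControl, 149 and 64.9 CPM in shNFIB, and 62.7 and 33.7 CPM in shMLL1. Its ranges on the 2 days overlapped in that shNFIB at day 7 was above shMLL1 at day 0. Mob1a, the activator of the LATS kinases, fell by 0.81 (SE 0.21, adjusted p = 0.0263). Stk4, the gene of MST1, was at -0.53 and had no call (adjusted p = 0.0586), and Lats1 was at -0.32 (adjusted p = 0.25).

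Vgll3, a cofactor that competes for TEAD factors, fell by 0.99 (SE 0.25, adjusted p = 0.0235), and Wwc2, an upstream scaffold of LATS, fell by 0.81 (SE 0.18, adjusted p = 0.0143). Strn3 and Ppp2r1a, parts of the phosphatase complex that opposes MST1 and MST2, fell by 0.76 (SE 0.19, adjusted p = 0.0221) and 0.74 (SE 0.20, adjusted p = 0.031). Genes that restrain YAP and genes that favour it thus stood on both sides. Ppp2r1a had the highest median level per length of the list, 65.6 CPM per kilobase, but its range overlapped that of Mob1a (median 64.0), which was above it in both shMLL1 libraries. In the knockdown lines none of the 31 was called, beside 0.376% of all genes in shNFIB and 0.0299% in shMLL1. An unadjusted p under 0.05 was found for 7 in shNFIB, beside 12.5% of all genes, and for 1 in shMLL1, beside 9.28%. Without the shControl line Tead4, Tead3 and Stk3 were still called between days, and the other 7 of the 10 were not.

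**Figure D5:**
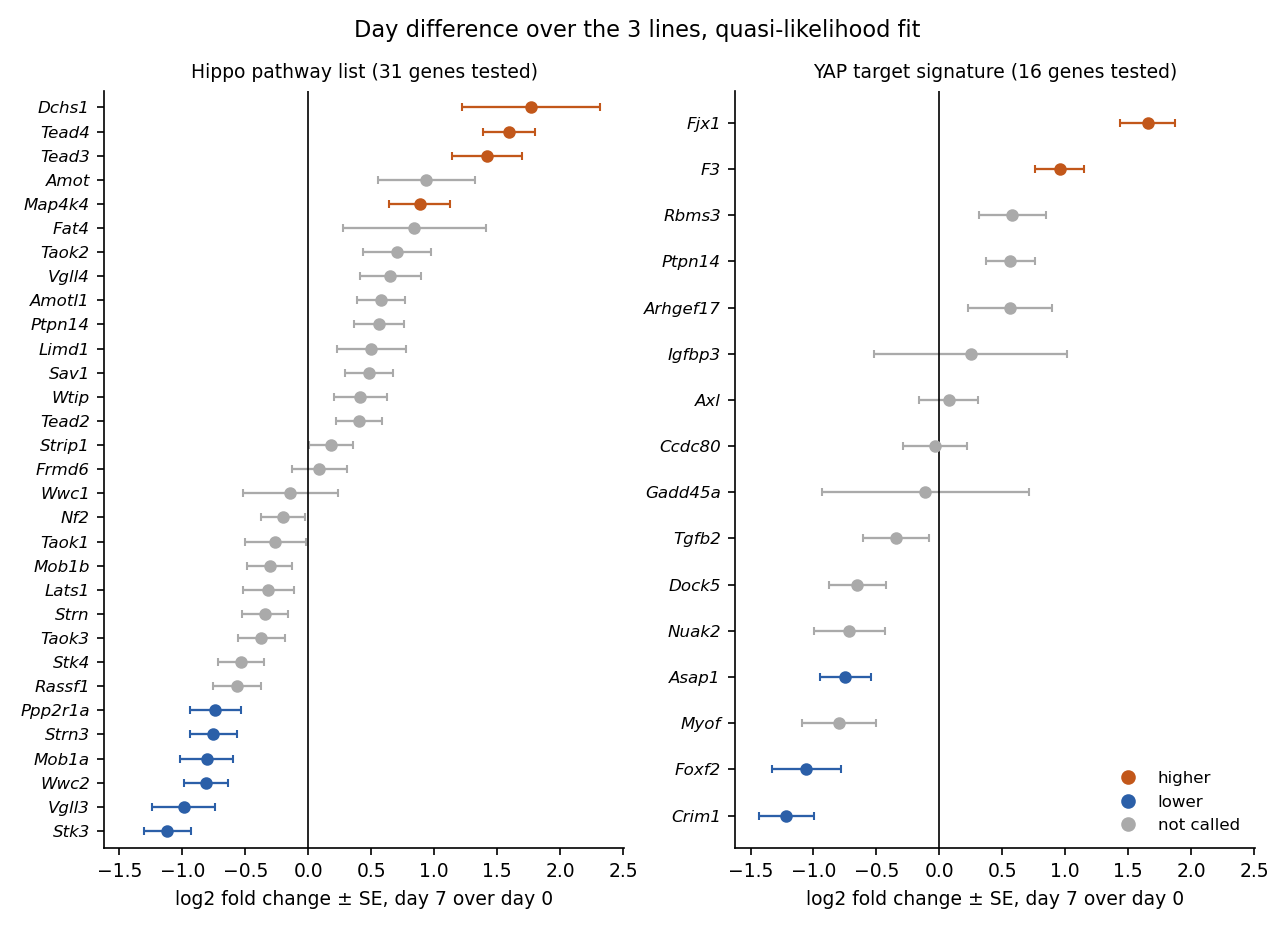
log2 fold change of day 7 over day 0 (horizontal axis, quasi-likelihood fit over the 3 lines, bars are ± SE) for the 31 genes of the pathway list and the 16 tested genes of the YAP target signature (vertical axes). Colours mark the genes called higher or lower at an adjusted p under 0.05. In the pathway list 4 genes rose and 6 fell, and in the signature 2 rose and 3 fell.

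Targets of YAP outside the 9 genes were taken from a signature of 17 genes, of which 16 were tested and Nt5e was too low. Between days 2 rose, 3 fell and 11 had no call, beside 16.8% of all genes called higher and 16.5% called lower. The median log2 fold change was -0.07, and 0.01 over all tested genes. With library size alone the split was 3 higher and 2 lower. Ptpn14 stands in both lists and had no call (log2 fold change 0.56, adjusted p = 0.0638).

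Fjx1, a gene related to Drosophila four-jointed, rose by 1.65 (SE 0.22, adjusted p = 0.00278), from 7.61, 15.96 and 5.60 CPM at day 0 in shControl, shNFIB and shMLL1 to 24.7, 40.1 and 21.6 CPM at day 7. F3, the gene of tissue factor, rose by 0.95 (SE 0.19, adjusted p = 0.0114), from 122, 102 and 57.8 CPM to 203, 210 and 123 CPM. In shMLL1 F3 was below the other lines on both days. Crim1, a membrane protein that binds BMPs, fell by 1.22 (SE 0.22, adjusted p = 0.0077), Foxf2, a forkhead factor, fell by 1.06 (SE 0.27, adjusted p = 0.0257), and Asap1, a regulator of ARF GTPases, fell by 0.75 (SE 0.21, adjusted p = 0.0313). Axl, a receptor tyrosine kinase, had the highest median level per length of the signature, 85.2 CPM per kilobase, and no day difference that passed (log2 fold change 0.07, adjusted p = 0.826). F3 was above Axl per kilobase in shControl at day 7, and Gadd45a in shMLL1 at day 0. Without the shControl line Fjx1 was the 1 gene of the signature still called.

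In shMLL1 at day 0, 2 of the 16 tested genes of the signature were over 2-fold above shControl and 4 were over 2-fold below it, beside 20.8% of all genes past that fold in either direction. The median log2 ratio was -0.59, and -0.04 over all genes. Rbms3 was 2.30-fold, F3 2.12-fold, Tgfb2 2.08-fold and Arhgef17 2.03-fold lower. Nuak2 was 2.21-fold and Gadd45a 4.15-fold higher. Gadd45a, a gene of growth arrest and DNA damage responses, was at 137 CPM there, against 33.0 CPM in shControl and 27.4 CPM in shNFIB on the same day. The day 7 levels were 42.7 CPM in shControl, 91.1 CPM in shNFIB and 19.9 CPM in shMLL1, so its order between lines was another on each day. Apart from F3, these genes were named after their values were seen. In the knockdown lines none of the 16 tested genes of the signature was called, beside 0.376% of all genes in shNFIB and 0.0299% in shMLL1. At an unadjusted p under 0.05 there were 5 in shNFIB, beside 12.5% of all genes, and 3 in shMLL1, beside 9.28%.

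Ranked by the median level per kilobase of exon over the 6 libraries, the 9 genes were in the order Amotl2 at 21.6, Wwtr1 at 19.9, Ccn1 at 15.8, Yap1 at 13.7, Ccn2 at 13.2, Ajuba at 9.04, Tead1 at 8.55, Lats2 at 3.59 and Ankrd1 at 0.811 CPM per kilobase. The ranges of neighbours in this order overlapped, except that Lats2 lay wholly below Tead1. Ankrd1 was lowest by its median and reached 66.6 CPM per kilobase in shMLL1 at day 0, above every value of the other 8.

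Genes with a pattern like that of each member were sought by Pearson's r of log2 CPM over the 6 libraries, among the 13339 genes that reached 10 counts in all of them. The nearest to Yap1 were Mettl3 and Wipf1, to Wwtr1 Lrrfip1 and Rragc, and to Tead1 Slc36a4 and Gid8. Lats2 was nearest to Scamp1 and Pskh1, Amotl2 to Klf6 and Ubxn4, and Ajuba to Haus7 and Gm10093. Ccn1 was nearest to Fam32a and Uqcc3, Ccn2 to Bex3 and H2afz, and Ankrd1 to Rab11a and Tsta3. The r of these genes was between 0.985 and 0.999. For a single member 156 to 1260 genes exceeded 0.9, and the 6 points share 3 lines, 2 days and the same scaling. Yap1 and Wwtr1 had an r of 0.72, which placed Wwtr1 at rank 1970 of the genes ordered by likeness to Yap1.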

How the data were processed

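RNA-seq libraries of 6 conditions were used, 1 library each. Per the labels and the study's methods, paired reads of 100 bp were trimmed with Trimmomatic 0.39, aligned to GRCm38 (mm10) with HISAT2 2.2.1, kept above a mapping quality of 30 with SAMtools 1.12, freed of PCR duplicates and counted per gene with HTSeq 0.11.1. The deposited table holds raw, unnormalized counts for each Ensembl gene. The annotation release and strand setting are not given in the sources used here. Symbols, positions and exon lengths came from GENCODE M21, which held 55141 of the 55401 genes.

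The fit over 6 libraries used edgeR 4.0.16 in R 4.3.3 (TMM, filterByExpr, quasi-likelihood, terms line and day, 2 residual degrees of freedom, biological coefficient of variation 0.281) and was tested on simulated data. DESeq2 1.42.0 was an alternative. The line was a block because both days come from the same cells. As a check, the 2 days of a line deviated together (correlations over 13339 genes between 0.256 in shMLL1 and 0.411 in shControl). Pairs of libraries were compared by log2 ratio with exact 95% Clopper-Pearson intervals of the counts, and differences of day ratios by a normal interval on the log counts. Nothing says that the lines are independent cultures beyond their hairpins, so p-values hold for these libraries only. They measure an effect against the spread that the line and day terms leave over. A day difference that varies between lines counts as error, and so does a line difference that depends on the day, as for Ankrd1 in shMLL1. Named were the 9 genes, the hairpin targets, the called genes (up to 8) and the most abundant gene of each list, and the 2 genes most like each member. Members and lists were chosen with earlier results of these data known.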

Additional observations from a re-analysis of the deposited data

Results flagged for a closer look

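The day change of Amotl2 had opposite signs in 2 lines. In shControl the log2 ratio of day 7 over day 0 was -0.0889 (95% interval of counting error -0.15 to -0.03), and in shNFIB it was 0.1748 (0.12 to 0.23). Each condition had 1 library, so the difference between the lines was not tested. Both values are within a fold of 2, and with library size alone as scaling the ratio of shControl was 0.0109.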

How the results depend on the processing

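Of 69 recomputed counts, 55 stayed within 1.5 times the reported count. For day 7 against day 0, leaving out 1 line at a time gave 1 to 3 of the 9 genes (2 reported), 4 to 9 of the pathway list (10 reported) and 1 to 7 of the signature (5 reported). The lowest of each came without the shControl line, where Ajuba and Ccn2 were no longer called and Ankrd1 was. A fold change over 2 beside the adjusted p left 1, 4 and 3. Without the line as a replicate block the counts were 3, 4 and 1, so the block decided most calls of the 2 lists. DESeq2's Wald test called 8 genes of the signature. In shMLL1 against shControl, keeping all genes with a count called 1 gene, Ankrd1. At a fold of 1.5 between libraries, 3 genes differed by day in shControl, 4 by day in shNFIB, and 1 in shNFIB against shControl at day 7. With the whole counting interval past a fold of 2, 0 genes differed in shNFIB against shControl at day 0. Of 548 recomputed fold changes 1 reversed: the day value of Gadd45a ranged from -1.2031 without the shNFIB line to 1.0531 without the shMLL1 line (adjusted p = 0.038), against -0.11 over all lines. Of 126 recomputed pair ratios 1 reversed, that of Amotl2 in shControl, at 0.0109 with library size alone. That scaling moved the median of all genes by 0.13 in the day fit and by up to 0.21 between single libraries. The cause of these differences was not tested. Leaving out a line also leaves fewer libraries for the test, so a lost call cannot be assigned to that line's values. Ankrd1, with 48 to 192 counts outside shMLL1 at day 0, was the least precisely counted of the 9 genes.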
